A study of Mus musculus with 6 samples.

Results

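The genes described here encode the T cell receptor complex of CD4+ cells and the proteins that act first on it: Cd4, the coreceptor, Cd3d, Cd3e, Cd3g and Cd247, the signalling chains of the receptor, the kinases Lck and Zap70, and the adaptors Lat and Lcp2. Members were taken by gene symbol, as all probe sets whose only symbol in the platform annotation is one of these 9 genes. That gave 15 probe sets for 8 genes, of 45101 probe sets on the array. Lck was not analysed here, because 0 probe sets carried its symbol in the annotation used. The rule used no measured values.

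The antigen receptor of most T cells is a pair of variable chains that have almost no cytoplasmic tail, so the signal leaves through the associated CD3 gamma, delta and epsilon chains and the zeta chain encoded by Cd247. When a peptide on an MHC molecule is recognised, the kinase Lck, held near the receptor by the coreceptor, phosphorylates the tyrosine motifs of these chains, and Zap70 binds there and phosphorylates the adaptors Lat and SLP-76, the product of Lcp2. Regulatory T cells depend on this pathway for their development in the thymus and for their suppressive function.

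RNA from sorted CD4+YFP+ lymph node T cells was measured on 6 arrays. All mice carried FoxP3-GFP-hCre, which expresses Cre fused to GFP from Foxp3, and the ROSA26R-YFP reporter. The 3 Het arrays came from Dicerwt/lox mice, with 1 floxed copy of Dicer, and the 3 KO arrays from Dicerlox/lox mice, with both copies floxed, so Cre acted in the controls too. YFP stays on once Cre has acted, so sorted cells need not still express Foxp3, and the labels give neither the age of the mice nor whether cells of several mice were pooled. The arrays of each group bear the letters A, B and C, with nothing to say that they are separate animals, so each p-value speaks to array-to-array spread alone, and that spread could be technical. The comparison of KO with Het addresses how loss of Dicer, which makes mature microRNAs, changes the messenger RNAs of these cells.

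Several markers of other lymph node cells were highest on both B arrays. Each marker list was summed over the brightest probe set of each gene. CD8 T cell markers (2 of 2 measured) summed to 651 to 2257 in Het and 636 to 4415 in KO, NK markers (3 of 4) to 122 to 617 and 138 to 1728, B cell markers (4 of 5) to 515 to 1643 and 739 to 2043, and myeloid markers (5 of 5) to 271 to 592 and 447 to 1655. The highest sum of each was on the B array of its group, carried by Klrd1 in the NK list and Lyz2 in the myeloid list. Among the Het arrays alone, Klrk1 and Csf1r were instead lowest on B. Ncr1, Cr2, Itgam and Cd14 lay below the level needed for testing, as did both measured erythroid markers of 4 listed (sums of 16.7 to 18.2 and 16.3 to 38.2). Markers of gamma delta T cells (1 of 5 measured, Sox13, at 117 to 158 in Het and 108 to 121 in KO) and stroma (4 of 4, 1155 to 1451 and 1569 to 1844) showed no such excess on both B arrays. The stroma sum was carried by Pecam1, at 1406, 1111 and 1371 in Het against 1525, 1687 and 1802 in KO (log2 0.37; limma, adjusted p = 0.20). Col1a1 and Pdgfrb read at most 18.8 and 17.7, and Col3a1 lay below the level for testing. Of the alpha beta T cell markers (3 of 8 measured), Cd2 and Cd5 were bright on every array, with sums of 31450 to 34110 and 32520 to 35830, and the Tcra probe set was below the level for testing. Regulatory T cell markers (5 of 5) summed to 60360 to 67250 in Het and 70490 to 76250 in KO, but did not move together: Ctla4 gave log2 0.76, Il2ra 0.67 and Tnfrsf18 0.20, and Ikzf2 -0.24 and Foxp3 -0.55, none past the test. Foxp3 read 9960, 8945 and 9769 on Het A, B and C and 5453, 9417 and 5420 on KO A, B and C. In bulk RNA, fewer cells of a type cannot be told apart from less RNA per cell.

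By the brightest probe set of each gene, messenger RNA of the receptor complex differed little between KO and Het. Of the 14 member probe sets bright enough to test, 0 passed limma at an adjusted p under 0.05, beside 1.78% of all 29507 probe sets tested. An unadjusted p under 0.05 was found for 1 of the 14, that of Cd3d, beside 19.1% of all. With 1 probe set per gene, the brightest, 0 of 8 genes passed beside 2.33% of 13280 genes. At an unadjusted p under 0.05 it was 1 of 8 beside 22.3%. Counts among so few members cannot be told apart from these shares. The median log2 difference of the 8 genes was -0.02 and their median absolute difference 0.09, beside -0.03 and 0.17 over all genes tested. For the brightest probe sets of all 8, the 95% interval of the difference lay within a 1.5-fold change either way, which held for 57.3% of genes tested. Over all member probe sets tested it held for 10 of 14 (71.4%), beside 51.5% of all probe sets tested. These shares were not matched for brightness. These intervals come from the limma fit and are not widened for the number of probe sets. The remaining probe set, the dimmest of Cd247, read at most 7.41 on any array, below the level for testing.

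**Figure D1:**
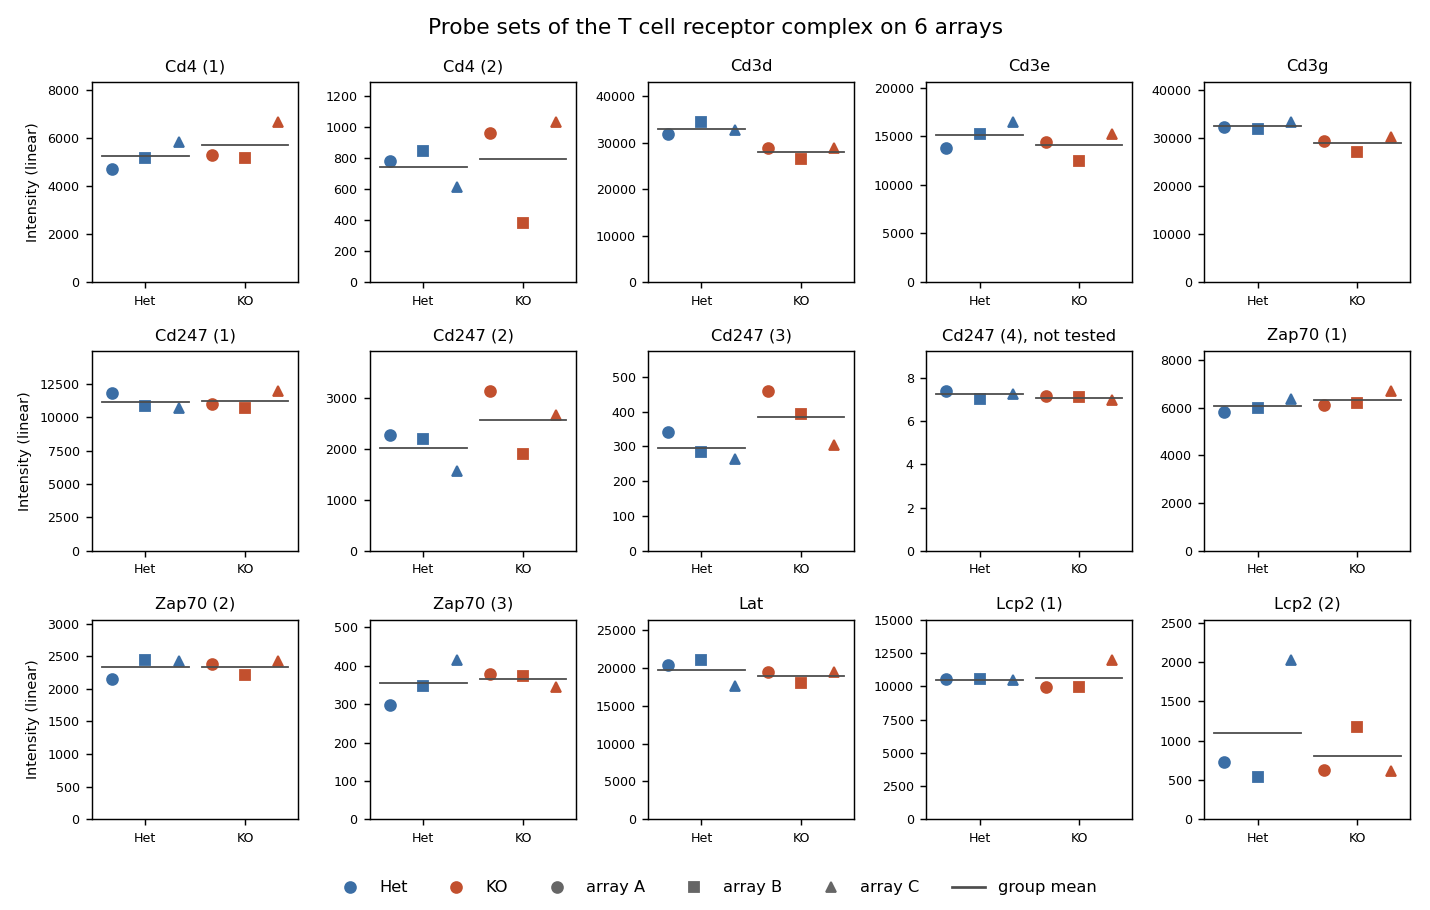
Intensity (linear scale, axes from 0) of each of the 15 member probe sets on 3 Het (blue) and 3 KO (orange) arrays, with symbols for the letters A, B and C, lines at the group means, and numbers in brackets ranking a gene's probe sets from bright to dim. The KO points lie below all Het points for Cd3d and Cd3g, and the groups overlap in the other 13 panels.

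Cd4, the MHC class II coreceptor by which the cells were sorted, was present on every array. Its brighter probe set (1419696_at) read 4694, 5177 and 5809 on Het A, B and C and 5298, 5161 and 6651 on KO A, B and C. The groups overlapped, and the log2 difference of 0.12 had a 95% interval of -0.22 to 0.47 (limma, adjusted p = 0.692). It ranged from 0.01 without KO C to 0.20 without Het C. The dimmer probe set (1427779_a_at) gave intensities of 776, 843 and 609 in Het against 961, 377 and 1028 in KO. KO B was the lowest array and the other KO arrays were the highest, so this probe set gave log2 -0.03 with the wide interval of -1.06 to 0.99, and 0.43 without KO B.

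The 3 CD3 chains have their genes side by side on mouse chromosome 9. Cd3g and Cd3d are read in opposite directions from start sites 1355 bp apart, and the start of Cd3e lies 27825 bp from that of Cd3d. Their promoter windows are shown because the CD3 genes include the 2 members whose groups did not overlap, and those 2 are the divergent neighbours. That choice was made after the values were seen. Neither Cd3d nor Cd3g passed (limma, adjusted p = 0.20 and 0.318), and no link between the sequences and the values was tested. Each window runs from 250 bases before to 50 after the start (RefSeq, build GRCm38.p6), on the strand of the gene. Capitals mark matches, on either strand, to the E-box CAGNTG, which E proteins can bind, and to the ETS-type motif CAGGAAG.
Cd3g, chr9:44980382-44980681, minus strand: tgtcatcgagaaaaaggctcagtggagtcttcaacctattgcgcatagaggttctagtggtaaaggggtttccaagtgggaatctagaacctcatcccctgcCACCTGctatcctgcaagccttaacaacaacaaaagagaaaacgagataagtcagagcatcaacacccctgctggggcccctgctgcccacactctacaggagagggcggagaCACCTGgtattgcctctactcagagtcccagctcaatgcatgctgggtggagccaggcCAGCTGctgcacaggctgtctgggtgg
Cd3d, chr9:44981536-44981835, plus strand: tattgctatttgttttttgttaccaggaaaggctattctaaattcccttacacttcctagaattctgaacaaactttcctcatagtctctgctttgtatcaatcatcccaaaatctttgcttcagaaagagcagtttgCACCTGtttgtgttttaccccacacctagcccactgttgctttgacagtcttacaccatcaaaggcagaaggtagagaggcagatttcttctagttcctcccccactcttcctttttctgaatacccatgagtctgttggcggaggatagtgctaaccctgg
Cd3e, chr9:45009562-45009861, minus strand: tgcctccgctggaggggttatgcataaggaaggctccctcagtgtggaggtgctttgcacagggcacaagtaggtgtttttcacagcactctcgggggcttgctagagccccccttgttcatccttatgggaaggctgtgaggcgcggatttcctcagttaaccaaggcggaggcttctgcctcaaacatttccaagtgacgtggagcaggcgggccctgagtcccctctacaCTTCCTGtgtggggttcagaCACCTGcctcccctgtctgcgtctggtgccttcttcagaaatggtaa
The E-box was found 3 times in the Cd3g window and 1 time in each of the others, and 51.4% of all 32851 promoter windows of this length hold at least 1. Of these 3 windows only that of Cd3e held the ETS-type motif, against 13.3% of all windows. The RUNX motif TGTGGT and the TATA motif TATAAA had 0 matches on either strand in these 3 windows, and stand in 16.8% and 13.6% of all windows. Windows of other members are not shown. Among those, the ETS-type motif had matches for Cd247, Lck, Lat, Lcp2 and Zap70, and the RUNX motif for Lck, Lat and Zap70. Lck and Zap70 have several windows, and not every one held both motifs. No marked match overlaps another. A match describes the sequence and does not show that a factor binds there.

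Cd3d encodes the delta chain, which pairs with epsilon in the assembled receptor. Its probe set (1422828_at) read 31906, 34413 and 32690 on Het A, B and C and 28842, 26535 and 28922 on KO A, B and C. Every KO array lay below every Het array, with means of 33003 ± 1280 (SD, n = 3) in Het and 28100 ± 1360 in KO. The log2 difference was -0.23 ± 0.08 (SE), 14.9% lower in KO, with an interval of -0.43 to -0.04, and it did not pass (limma, adjusted p = 0.20). This was the largest absolute difference among the 8 genes by their brightest probe sets.

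Cd3g, whose gamma chain forms the other epsilon pair, gave intensities of 32330, 31913 and 33235 in Het against 29433, 27045 and 30234 in KO (1419178_at). The groups again did not overlap, at a log2 difference of -0.17 ± 0.08 (SE; interval -0.37 to 0.03; limma, adjusted p = 0.318). Cd3e encodes epsilon, the chain shared by both pairs, and gave intensities of 13820, 15247 and 16450 in Het against 14440, 12494 and 15246 in KO (1422105_at). Here the groups overlapped, and the log2 difference was -0.11 (interval -0.40 to 0.17; limma, adjusted p = 0.659).

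Separation of the groups in 2 of 8 genes, both with KO below, is not a result about these genes, since 29.9% of all genes tested had groups that did not overlap, 16.8% with KO below. KO B, the array with the highest CD8, NK and myeloid markers, was the lowest array for all 3 CD3 genes. Whether these observations are linked was not tested. Without KO B the log2 differences were -0.19 for Cd3d, -0.12 for Cd3g and -0.03 for Cd3e, and without both B arrays -0.16, -0.14 and -0.02. The value of Cd3e also shrank to -0.05 without Het C, and ranged from -0.18 to -0.03 when 1 array was left out. All 3 differences stayed negative under quantile normalization and median centring.

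Cd247 encodes zeta, the chain with the most tyrosine motifs of the complex. The brightest of its 4 probe sets (1426396_at) gave intensities of 11861, 10827 and 10731 in Het against 11016, 10731 and 11993 in KO. Het and KO arrays were interleaved, with a log2 difference of 0.01 (interval -0.20 to 0.23; limma, adjusted p = 0.947). The next (1452539_a_at) gave intensities of 2279, 2208 and 1565 in Het against 3146, 1895 and 2668 in KO, a log2 difference of 0.34 with an interval of -0.26 to 0.94. A dimmer one (1420716_at) gave intensities of 342, 283 and 263 in Het against 459, 392 and 304 in KO, a log2 difference of 0.37 with an interval of -0.09 to 0.83. The groups overlapped for both, neither passed (limma, adjusted p = 0.512 and 0.356), and both intervals include the value of the brightest probe set.

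Zap70, the kinase that docks on the phosphorylated chains, had 3 probe sets and differences near 0 on all of them. The brightest (1422701_at) gave intensities of 5827, 5966 and 6354 in Het against 6117, 6169 and 6695 in KO. These groups overlapped, with a log2 difference of 0.06 ± 0.08 (SE; interval -0.14 to 0.27; limma, adjusted p = 0.721). The other probe sets gave log2 0.00 (1440178_x_at, interval -0.22 to 0.22) at intensities of 2145 to 2447 and 0.06 (1439749_at, interval -0.28 to 0.41) at 297 to 416.

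Lat, the membrane scaffold phosphorylated by Zap70, gave intensities of 20329, 21088 and 17666 in Het against 19477, 18041 and 19393 in KO (1460651_at). Het C was the lowest and Het B the highest array, so the KO values lay inside the Het range, and the log2 difference was -0.05 (interval -0.29 to 0.19; limma, adjusted p = 0.823). Lcp2, which links Lat to the calcium and actin branches of the signal, gave intensities of 10545, 10517 and 10443 in Het against 9952, 9913 and 12006 in KO on its brighter probe set (1418641_at). The 3 Het arrays were nearly equal and the KO arrays fell on both sides of them, at log2 0.01 (interval -0.24 to 0.26; limma, adjusted p = 0.965). The dimmer Lcp2 probe set (1418642_at) gave intensities of 733, 540 and 2030 in Het against 623, 1178 and 617 in KO. Het C stood above all other arrays there, and the log2 difference of -0.28 (interval -1.65 to 1.09) became 0.29 without it.

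**Figure D2:**
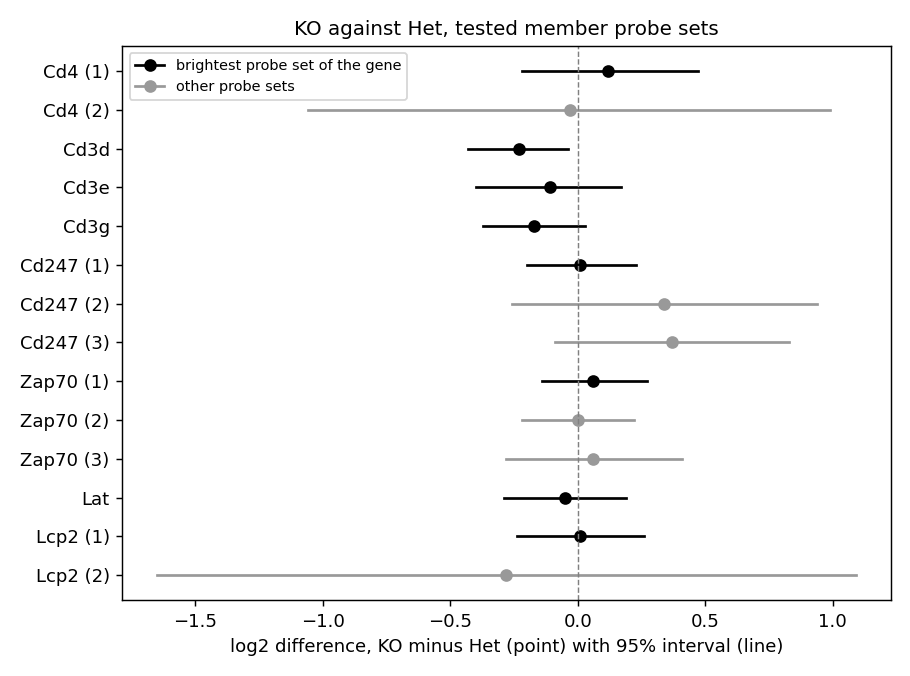
Log2 difference, KO minus Het (x axis), with its 95% interval from limma for the 14 tested member probe sets, in black for the brightest probe set of each gene and grey for the others. All black intervals lie between -0.43 and 0.47, and the interval of Cd3d is the one that does not include 0.

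Levels varied little within a group for the brightest probe sets. Their within-group SD on the log2 scale had a median of 0.093 over the 8 genes, beside 0.16 over all genes tested. Over the 14 member probe sets tested the median was 0.12, beside 0.18 over all probe sets tested. Neither comparison was matched for brightness. Cd3g (0.063), Cd3d (0.064), Zap70 (0.068) and Cd247 (0.082) had the smallest spread, and Cd4 (0.18) the largest. The dimmer probe sets of Lcp2 (0.80) and Cd4 (0.60) were the most variable of the 14, which is why they bound the difference so loosely.

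Ratios within an array were used to compare the chains with the coreceptor. The log2 ratio of Cd3d to Cd4 was 2.76, 2.73 and 2.49 on Het A, B and C and 2.44, 2.36 and 2.12 on KO A, B and C. That of Cd3g to Cd4 was 2.78, 2.62 and 2.52 in Het against 2.47, 2.39 and 2.18 in KO, and that of Cd3e to Cd4 was 1.56, 1.56 and 1.5 in Het against 1.45, 1.28 and 1.2 in KO. For all 3 CD3 genes each KO ratio lay below each Het ratio; such levels mix probe properties with RNA amounts, so only their change between arrays is read. The mean ratio was lower in KO by 21.8% for Cd3d, 18.3% for Cd3g and 14.9% for Cd3e. All ratios share the same Cd4 values, so their differences are tied to one another. Cd4 itself gave log2 0.12, which enters each ratio with the opposite sign. Taken without Cd4, Cd3e gave log2 -0.11 with overlapping groups.

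Each of these differences had p = 0.10 by a two-sided exact permutation test, the smallest that 3 arrays against 3 allow, and p = 0.233 after Benjamini-Hochberg adjustment over the 7 ratios computed. The same separation, with KO below, was seen for 14.7% of 13279 genes set against Cd4. The ratios of Cd247, Zap70, Lat and Lcp2 to Cd4 overlapped between groups, with log2 differences of -0.11, -0.06, -0.17 and -0.11 (exact permutation test, p = 0.40, 0.70, 0.40 and 0.40). With the dimmer Cd4 probe set in the denominator the CD3 ratios overlapped too, at log2 -0.20 for Cd3d, -0.14 for Cd3g and -0.08 for Cd3e. Without both B arrays the differences by the brighter Cd4 probe set were -0.35, -0.32 and -0.21.

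**Figure D3:**
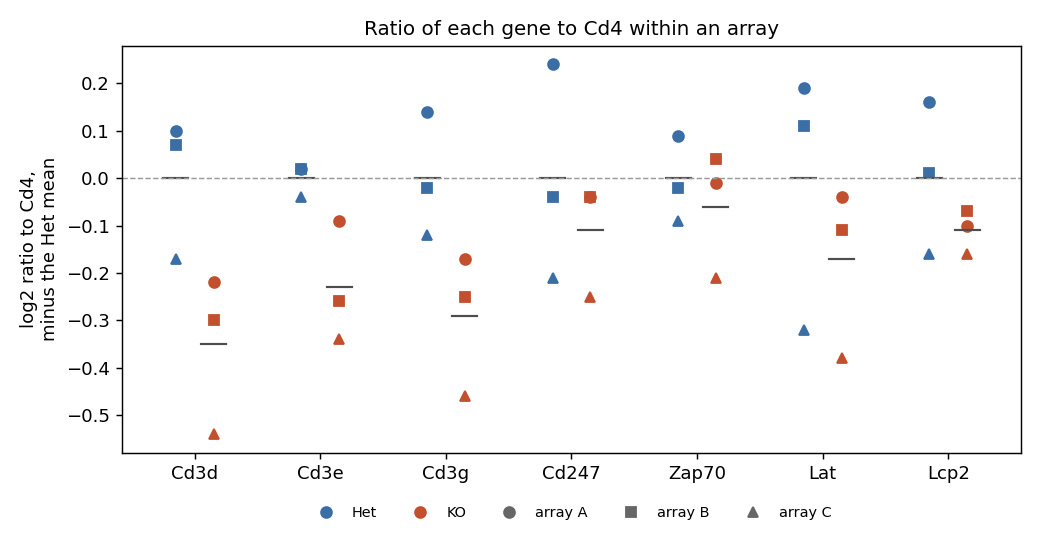
Log2 ratio of each gene to Cd4 (brightest probe sets) on each array, minus the mean of the Het arrays (y axis), for 7 genes (x axis), with Het in blue, KO in orange, symbols for the letters and short lines at the group means. The KO points lie below all Het points for Cd3d, Cd3e and Cd3g and overlap with them for the other 4 genes.

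The variable chains of the receptor itself were covered by 17 probe sets named for 10 genes, a set taken by the form of the symbol after the files had been seen. Of these 15 were tested, 0 passed limma and 4 had an unadjusted p under 0.05, beside 1.78% and 19.1% of all probe sets tested. Probe sets named for gene segments can also detect other segments or the constant region, so the segment names are uncertain. The brightest, named Trbv1, gave intensities of 81834, 84057 and 83539 in Het against 79794, 74715 and 83978 in KO (log2 -0.07; limma, adjusted p = 0.702). The brightest named Trav9d-3 gave intensities of 48389, 52003 and 49744 in Het against 55876, 46271 and 55639 in KO (log2 0.07, adjusted p = 0.777). On both probe sets the groups overlapped and KO B was the lowest array.

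Larger differences were seen on dimmer segment probe sets, none past the test. Trav6-3 gave intensities of 391, 389 and 345 in Het against 219, 102 and 110 in KO (log2 -1.47; limma, adjusted p = 0.0798). Trbv13-2 gave intensities of 1230, 1016 and 1240 in Het against 660, 774 and 779 in KO (log2 -0.65, adjusted p = 0.0658). Trav12n-2 gave intensities of 1094, 2353 and 960 in Het against 711, 578 and 694 in KO (log2 -1.04; limma, adjusted p = 0.201). In each of these, every KO array lay below every Het array. Groups did not overlap in 4 of the 15 tested segment probe sets, beside 26.2% of all probe sets tested. Such separation is therefore not a result about these segments. A gamma chain probe set, Trgv1, had the largest positive value, with 56.4, 79.7 and 31.5 in Het against 203, 79.5 and 105 in KO (log2 1.19; limma, adjusted p = 0.257), with overlapping groups.

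Further along the pathway, 106 other genes were listed by role, 83 of them had a probe set and 82 were tested. None of the 82 passed limma at an adjusted p under 0.05, and 23 had an unadjusted p under 0.05, 14 higher and 9 lower in KO, beside 2.33% and 22.3% of all genes tested. Their median log2 difference was 0.05, against -0.03 over all genes tested, and the groups did not overlap in 36.6% of them, against 29.9%. All lists rest on the same 6 arrays and are described by counts and medians. Genes named for the smallest p of a list tend to have groups apart, so their separation adds nothing to their p.

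Among 9 other kinases (median log2 difference 0.16), 1 had an unadjusted p under 0.05, beside 22.3% of all genes tested. Map4k1 (HPK1), which restrains the signal by acting on SLP-76, gave intensities of 4060, 4449 and 4613 in Het against 5131, 6492 and 6020 in KO (log2 0.42; limma, adjusted p = 0.138). Pdpk1, a kinase upstream of Akt, gave log2 0.19 (adjusted p = 0.284), and a dimmer Pdpk1 probe set gave -0.37. Fyn, the other Src family kinase of the receptor, gave 0.11 with overlapping groups, and Csk, which holds Src family kinases inactive, gave 0.01.

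Among 23 other adaptors (median 0.02), 4 higher in KO and 3 lower had an unadjusted p under 0.05 (22.3% of all genes). Sh2d1a, the gene of the adaptor SAP, came closest to the threshold. It gave intensities of 5847, 5720 and 5799 in Het against 4229, 3842 and 4294 in KO, which is log2 -0.49 ± 0.08 (SE; limma, adjusted p = 0.0511). Its adjusted p was under 0.05 in 6 of 16 alternative fits and 0.0509 to 0.17 in the other 10, which include the replicate block and each fit with an array left out. Skap2, an adaptor of integrin activation, gave intensities of 914, 934 and 1077 in Het against 1368, 1610 and 1633 in KO (log2 0.66, adjusted p = 0.0577), with 0.30 and 0.07 on its other probe sets. For both genes the KO and Het arrays were fully apart. Vav1, which binds SLP-76, gave log2 0.00.

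Of 25 genes of lipid, Ras, calcium and NFAT signalling (median 0.07), 4 higher in KO and 3 lower had an unadjusted p under 0.05. The share over all genes tested was 22.3%. Itpkb, a kinase of the calcium-releasing messenger IP3, gave intensities of 3923, 3811 and 4300 in Het against 3033, 3132 and 2898 in KO (log2 -0.41; limma, adjusted p = 0.0786), while its dimmer probe set had overlapping groups (log2 -0.35). Ppp3cc, a catalytic subunit of calcineurin, gave intensities of 1970, 1251 and 1342 in Het against 2534, 3353 and 2820 in KO (log2 0.95, adjusted p = 0.088), with 0.98 on the dimmer one. Plcg1, the phospholipase recruited by Lat, gave log2 0.21 with overlapping groups.

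Of 11 phosphatases and ubiquitin ligases (median 0.01), 2 higher in KO and 2 lower had an unadjusted p under 0.05 (22.3% of all genes). Ubash3a, a member of the family of suppressors of receptor signalling, gave intensities of 1851, 2343 and 1953 in Het against 3818, 2933 and 3706 in KO (log2 0.76; limma, adjusted p = 0.0706). Cbl, a ubiquitin ligase of the pathway, gave intensities of 6613, 6548 and 6279 in Het against 4704, 5748 and 4382 in KO (log2 -0.40, adjusted p = 0.162). Het and KO arrays were apart for both genes, but the other Ubash3a probe set, and both other Cbl probe sets, overlapped.

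Of 14 costimulatory and adhesion receptors (median -0.01), 3 higher in KO and 1 lower had an unadjusted p under 0.05 (22.3% of all genes). Itgb2, the beta chain of the integrin LFA-1, gave intensities of 15097, 16614 and 17686 in Het against 23107, 23601 and 24940 in KO (log2 0.54; limma, adjusted p = 0.0555). Cd2, an adhesion receptor, gave intensities of 14786, 13578 and 14769 in Het against 17263, 17922 and 18730 in KO (log2 0.32, adjusted p = 0.112). Cd28, the main costimulatory receptor, gave log2 -0.21 with overlapping groups. Of the antigen receptor chain symbols in the 16-name list, 1 (Tcra) had a probe set, and it was below the level for testing.

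**Figure D4:**
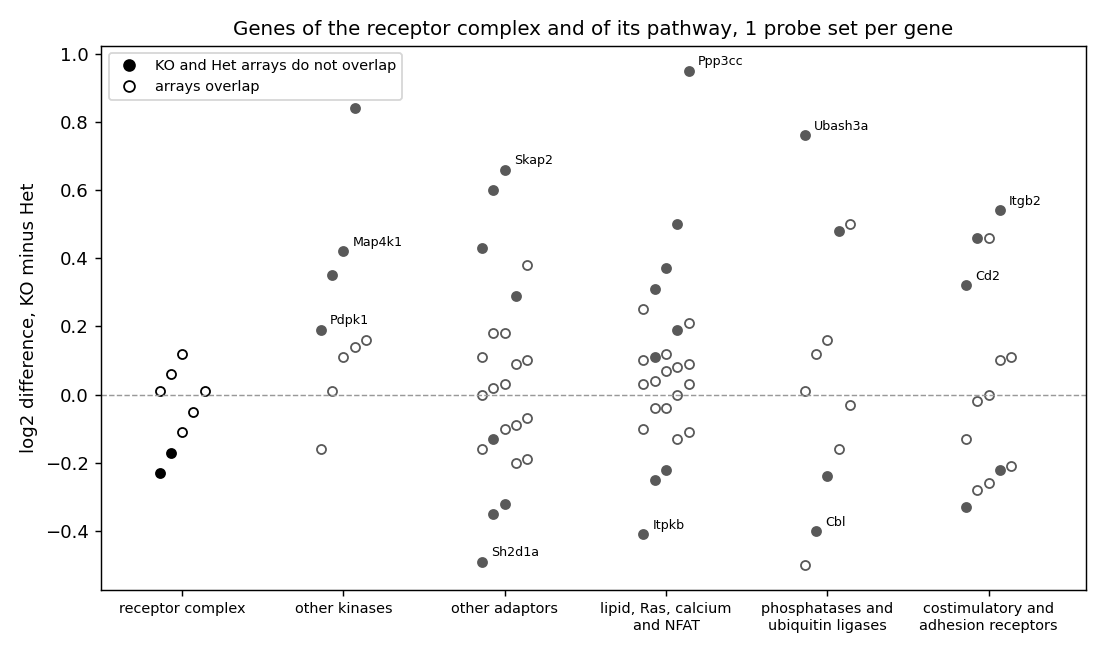
Log2 difference, KO minus Het (y axis), of the 8 measured genes of the receptor complex and of 82 other pathway genes in 5 lists (x axis), 1 probe set per gene; filled points are genes whose KO and Het arrays do not overlap, and names mark the genes given in the text by rule. The receptor complex spans -0.23 to 0.12, and the other lists together span -0.50 to 0.95.

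The mean profile of the 8 genes over the arrays, each centred on its own mean, was -0.01, 0.03 and 0.04 on Het A, B and C and -0.04, -0.11 and 0.08 on KO A, B and C, on the log2 scale. The genes most like it over the 6 arrays were Eif4a2, a translation factor (Pearson's r = 0.983), Rpl41, a ribosomal protein gene (0.980), Gm14137 (0.972), Spry1, a Sprouty inhibitor of receptor signals (0.968), and Ankrd2 (0.965). Gm14137 and Ankrd2 were dim and nearly flat, at 64.3 to 69.3 and 76.5 to 81.5, not far above the array medians of 58.1 to 61.5. The correlations describe 6 arrays that share the same normalization, and the profile's lowest point is KO B.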

How the data were processed

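RNA was extracted with TRIzol, amplified with the MessageAmp II kit and biotin-labelled, per the labels' protocols. The authors deposited probe set intensities, normalized with GCRMA per the labels (version not given in the sources used here). Values of 1.23 to 170023 were taken as linear and log2 was computed from them. GCRMA sets dim probe sets near a floor, which can distort their folds. From the 45101 probe sets, 64 controls were removed, as was 1 that lacked values. Tests ran on the 29507 whose log2 exceeded 4 on 3 or more of the 6 arrays (13280 genes with 1 symbol). The gene symbols came from the platform annotation.

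The difference KO minus Het was fitted with limma 3.58.1 (R 4.3.3; lmFit, eBayes) without covariates. Two-sided p-values were adjusted by Benjamini-Hochberg across all probe sets tested; 525 fell under the threshold of 0.05. Intervals are at 95%. The number of arrays limits the precision. The brightest probe set stood for a gene. Arrays had median intensities of 58.1 to 61.5. The fit was run on data simulated with known changes and independent noise. That checks the computation, and not how well the real arrays meet its assumptions. Plots were drawn with matplotlib 3.10.9.

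The members and gene lists were chosen with earlier results of these data known. Pathway genes were named by rule: up to 4 members of each list past the threshold, or the 2 of smallest p where 0 passed; Fyn, Csk, Vav1, Plcg1 and Cd28 and the receptor segments were added after their values were seen. The 5 genes most like the mean member profile were taken by Pearson's r. Alternatives were a block on the array letter, other filters, normalizations and fits, averaging a gene's probe sets, and leaving out arrays. Ratios to Cd4 were added after the values of the members were seen.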

Additional observations from a re-analysis of the deposited data

How the results depend on the processing

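No member probe set passed under any of the 15 alternatives run on the 14 tested ones (smallest adjusted p = 0.113 by limma), and 189 of 210 such values kept their sign. The sign changed for 21, most of them values near 0 but also the dimmer Lcp2 probe set (-0.277, and 0.287 without Het C). With quantile normalization the brightest Cd247 and Lcp2 probe sets gave -0.04 and -0.0432; with median centring 1440178_x_at of Zap70 gave 0.0181; with array weights it gave 0.0231 and the dimmer Cd4 probe set 0.223; without both B arrays these gave 0.0711 and 0.532 and Lat 0.0364. Leaving out 1 array gave log2 ranges of -0.0335 to 0.0597 for the brightest Cd247, -0.289 to 0.434 for the dimmer Cd4, -0.127 to 0.0006 for Lat, and -0.0804 to 0.0578 and -0.668 to 0.287 for the brighter and dimmer Lcp2 probe sets. For 1440178_x_at and 1439749_at of Zap70 it gave -0.0622 to 0.0378 and -0.0573 to 0.186.

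Over all probe sets the 525 calls became 957 with array weights, 0 with the replicate block (5365 at an unadjusted p under 0.05 by limma), 0 without both B arrays (5274) and 0 to 176 with 1 array left out (3, 18 and 2 when Het A, B or C was dropped, and 176, 8 and 0 when KO A, B or C was, the last with 4227 at an unadjusted p under 0.05). The cause was not tested. Over all probe sets tested, the deviations of same-lettered arrays from their group means had correlations of 0.28, -0.17 and 0.01 for A, B and C. Those of arrays with different letters ran from -0.45 to 0.37. Deviations within a group sum to 0, so these correlations are tied to one another and do not decide whether the letters are pairs. The letters were not taken as pairs because nothing says that they pair samples. Several markers of other cells were nevertheless high on both B arrays, and the tested Trgv4 probe sets on both A arrays. Member probe sets called numbered 0 with the block and 0 without it.

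Pathway genes called numbered 1 with no filter and 1 with the stricter filter of log2 above 6 (Sh2d1a in both), 2 with 16 added before the log and 2 with an intensity trend and robust fit (Sh2d1a and Itgb2 in both), 4 with array weights (these and Ubash3a and Skap2) and 4 when a gene's probe sets were averaged (Sh2d1a, Itgb2, Slamf6 and Themis). Sh2d1a's adjusted p was 0.0328 to 0.0496 in these 6 fits. In the other 10 (the block, quantile normalization, median centring, without both B arrays, and each array left out) 0 pathway genes were called by limma, with 15 to 25 at an unadjusted p under 0.05. Signal over background limits the dim probe sets.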
